A study of Mus musculus with 21 samples.

Results

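Knockout embryoid bodies were followed over the first 3 days after mouse embryonic stem cells (ESCs) were taken out of self-renewing culture, the interval in which such cells leave pluripotency. The members were chosen by level alone. Of 24458 genes in the deposited embryoid body table, 12123 had a mean FPKM (reads counted as fragments, divided by transcript length in kilobases and by library size) of at least 1 over the 4 knockout libraries of days 0 and 3. The same rule in the wild type libraries took 12112 genes. The 4 knockout libraries were 2 at day 0 and 2 at day 3, out of 12 embryoid body libraries and 21 samples in the series. Both genotypes were ESCs of a mixed 129/C57BL/6 strain at passages 15 to 18, either wild type for Rinf, the gene now named Cxxc5, or knockout for it (Rinf-/-). The series text names V6.5, a line of that mixed strain, for its wild type ESCs. Each genotype was represented by 2 independent ESC lines, and embryoid bodies were made by the hanging drop method. Per the labels, ESCs grew on gelatin in serum with LIF, the cytokine that maintains mouse ESCs, and the separate stem cell RNA samples had been kept on feeder cells before that. The labels give no treatment other than differentiation itself. The sources used here do not give which part of Cxxc5 was deleted.

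Naive pluripotency, the state of mouse ESCs in LIF, is held by a network of transcription factors that includes Nanog, Klf4, Esrrb and Tfcp2l1, with STAT3 acting downstream of the LIF receptor. When LIF is withdrawn, cells pass through a formative state marked by Otx2, Pou3f1 and Fgf5, in which Pou5f1 and Sox2 are still present, before they take up germ layer fates. In this transition the DNA methyltransferase Dnmt3b is normally raised and Tet2, one of the enzymes that oxidise 5-methylcytosine, is lowered. The protein made from Cxxc5 carries a zinc finger of the CXXC type, which recognises CG pairs that lack methylation.

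Tests were run with limma on log2(FPKM + 1) over the 8 libraries of days 0 and 3 in both genotypes, and a gene is said to rise or fall where its Benjamini-Hochberg adjusted p over all 12123 genes was under 0.05. Changes are given on that log2 scale, which understates those of low genes. Every adjusted p below is limma's. Values given in pairs are replicates 1 and 2 of a day. An exact permutation test, two-sided, could reach no lower than p = 0.333 with 2 libraries a group. The p-values measure the spread between these samples, and the bulk RNA cannot tell fewer cells of a type from less RNA per cell. Estimated depth lay between 17.1 and 32.8 M reads in the 4 knockout libraries and between 15.5 and 30.9 M in the wild type libraries of the same days. Replicates of the 4 groups correlated at 0.982 to 0.986 across genes. Of the variance, 69.1% lay on a first principal component that separated the days and 8.86% on a second that separated the genotypes.

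Cxxc5, on chromosome 18, stood at 6.87 and 8.64 FPKM in the 2 knockout libraries of day 0 and at 5.05 and 7.08 in those of day 3. The wild type libraries gave 31.4 and 25.1 at day 0 and 30.9 and 36.1 at day 3. Every knockout library lay below every wild type library, as the labels require, but the transcript was still read in all of them. In knockout its change from day 0 to day 3 was -0.32 ± 0.18 (SE; adjusted p = 0.16).

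Between days 0 and 3 of knockout culture, 7317 of the 12123 genes (60.4%) passed the test. Of these, 3370 rose (27.8% of the genes tested) and 3947 fell (32.6%). The median change over all genes was -0.04, and 718 genes rose and 520 fell by at least 2-fold. The shares of 27.8% and 32.6% are the background for each list count below. The excess of falls depended on the scaling and the minimum. With median ratio scaling 3701 rose and 3591 fell, and with no minimum 4435 rose and 4428 fell. In the other alternative settings more genes fell than rose. Membership itself favours change at low levels: 530 members had a day 0 mean under 1 and passed the minimum through day 3, and 318 passed it through day 0. Of the 530, 433 rose (81.7%) and 0 fell, and of the 318, 236 fell (74.2%) and 0 rose, directions that the choice of members largely sets. Among the 11275 members with a mean of at least 1 on both days, 2937 rose and 3711 fell. Just inside the minimum stood A230072E10Rik, Cabp4 and Lhfpl2, at mean FPKM of 1.0018, 1.0024 and 1.0027. Afap1l2, Ppp1r3f and Fam219a lay just outside, at 0.9985, 0.9983 and 0.9970.

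Klf4, a naive transcription factor, fell the most of the genes called whose days did not overlap, with Rik, Gm and LOC names skipped. It was read at 55.3 and 62.2 FPKM at day 0 and at 1.19 and 1.52 at day 3, a fall of 4.67 ± 0.15 (SE; adjusted p = 3.3e-06). Inhbb, which encodes a subunit of activin, went from 21.5 and 24.1 to 0.138 and 0.157 FPKM, so that both day 3 libraries were near 0. Socs3, the feedback inhibitor of the LIF receptor, went from 57.8 and 57.9 to 2.94 and 3.01. The other 7 of the 10 largest falls were Krt17, Hsd17b14, Bcl3, Pcolce, Sept1, Tgm1 and Calml4, with falls of 3.76 (Krt17) down to 3.31 (Calml4). They differ in function: Krt17 is a keratin, Hsd17b14 a steroid dehydrogenase, Bcl3 a nuclear cofactor of NF-kB, Pcolce an enhancer of procollagen processing and Tgm1 a transglutaminase. The 10 were taken only from genes whose libraries of the 2 days did not overlap, which was the case for 85.3% of all genes tested (10346 genes).

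Of the 10 largest rises by the same rule, 8 were genes for short RNAs (Mir1901, Mir666, Mir1954, Mirlet7e, Mir686, Snord8, Mir7082 and Mir669l), all listed at 0 in both day 0 libraries. These 8 were members through day 3 only, so the choice of members largely sets their rise. FPKM of genes this short hang on the length correction and on few reads, and no fold is given for them. The remaining pair were Fgf5 and Kif1a. Fgf5, the ligand that marks the formative epiblast, rose from 2.296 and 0.902 to 55.6 and 50.9 FPKM, by 4.44 ± 0.24 (SE; adjusted p = 1.4e-05). Kif1a, a motor of axonal transport, rose from 2.04 and 1.66 to 39.6 and 35.98. With genes for short RNAs set aside, a step chosen after the values were seen, the next largest rises were those of Fgf8, Sall2, Pim2, Cachd1, Sema6a, Enpp2, Zfp608 and Car14. Fgf8, a ligand of the primitive streak, rose from 0.595 and 0.859 to 18.5 and 21.3, and was a member through day 3 only. Pim2, a serine/threonine kinase, rose from an already substantial 20.7 and 21.1 to 239 and 219.8 FPKM, and Sall2, a zinc finger relative of Sall4, from 3.05 and 2.62 to 46.8 and 41.3. For each of these genes both day 3 libraries lay far above both day 0 libraries.

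**Figure D1:**
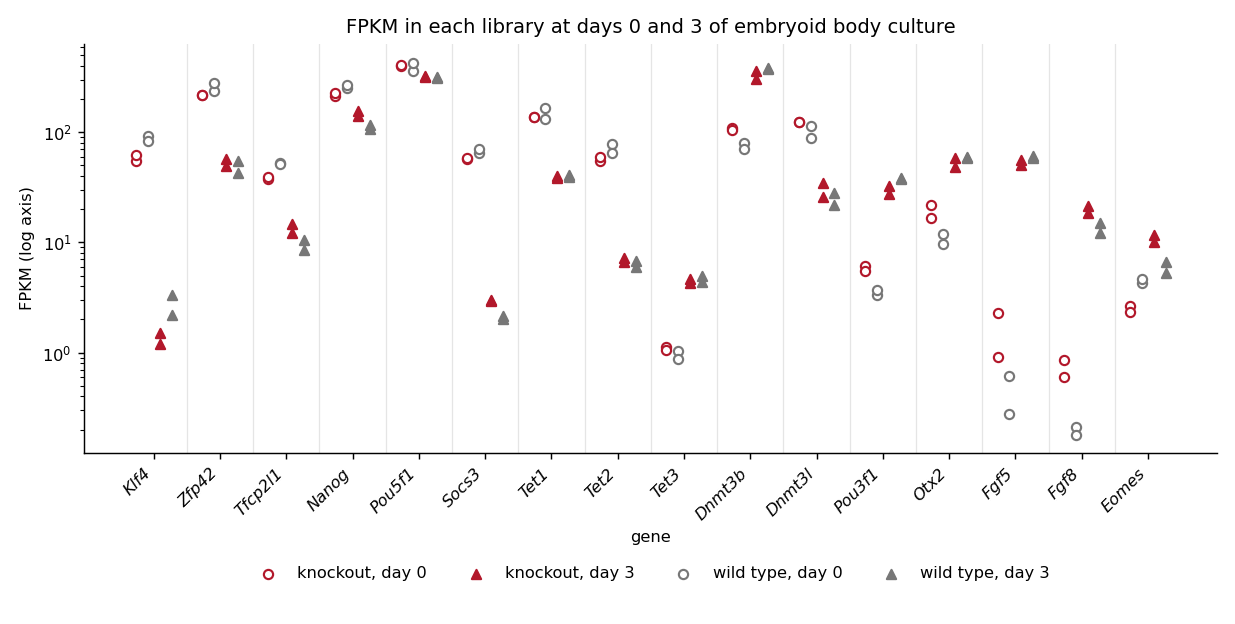
Expression of 16 genes in each library of days 0 and 3, in FPKM on a log axis; open circles are day 0, filled triangles day 3, red knockout and grey wild type, 1 point a library. Klf4, Socs3 and Tet2 fall by about an order of magnitude or more in knockout and Fgf5 and Fgf8 rise by as much, while Pou5f1 stays above 300 FPKM.

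All 12 naive pluripotency transcription factors were tested and all 12 fell in knockout, with a median of -1.73 against -0.04 over all genes. Behind Klf4 came Gbx2, from 15.1 and 19.6 to 1.94 and 2.46 FPKM, and Klf5, from 142 and 158 to 28.6 and 31.97. Tbx3 went from 18.6 and 19.8 to 3.42 and 3.63 and Zfp42, also called Rex1, from 216 and 219.7 to 49.5 and 57.4. Nr0b1, a nuclear receptor that binds Pou5f1, fell by 2.004, and the orphan receptor Esrrb by 1.22 (102 and 109.9 to 42.9 and 47.2). The falls differed in size, and Nanog, Prdm14 and Klf2, of the same network, kept more of their level than the genes above. Nanog went from 213 and 228 to 142 and 155 FPKM, a fall of 0.57 ± 0.07 (SE; adjusted p = 0.00046). Prdm14, a repressor of the epiblast programme, went from 7.03 and 7.17 to 3.96 and 4.402, and Klf2 from 117 and 122 to 61.5 and 68.3. Tfcp2l1, a target of STAT3, fell more than Esrrb, by 1.46, and stood at 37.4 and 39.3 on day 0 and 12.2 and 14.6 on day 3. In none of these genes did the 2 days overlap, which was also so for 85.3% of all genes tested. With all 12 embryoid body libraries in the fit, in which day 6 replicates spread widely, the fall of Nanog was no longer called (adjusted p = 0.236).

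Of 12 other naive-state markers, 10 fell and 0 rose (median -0.91). Spp1, the secreted protein osteopontin, went from 385 and 319.5 to 68.9 and 48.97 FPKM, Fgf4 from 84.2 and 84.9 to 20.8 and 17.96, and the adhesion molecule Jam2 from 14.03 and 17.1 to 2.72 and 3.17. Fbxo15, an F-box gene bound by Pou5f1 and Sox2, fell by 2.06. Dppa3 and Alpl did not pass the test. Dppa3, which protects methylation states in the early embryo, was read at 94.3 and 102 FPKM at day 0 and 80.9 and 100.2 at day 3. Alpl, the alkaline phosphatase used to stain pluripotent colonies, was read at 54.7 and 57.9 on day 0 and 52.3 and 58.9 on day 3. For both genes the libraries of the days overlapped.

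Factors that the naive and formative states share had a smaller median change. Among 14 general pluripotency genes, 10 fell, 2 rose and 2 were not called, with a median of -0.42. Sox2 was read at 217 and 229 FPKM on day 0 and 124 and 129 on day 3. Pou5f1, which encodes Oct4, went from 396 and 412 to 317 and 326, a fall of 0.33 ± 0.09 (SE; adjusted p = 0.014). That call was lost when any 1 of the 4 knockout libraries was left out (adjusted p 0.051 to 0.085), under quantile normalization (0.117) and with all 12 libraries in the fit (0.535). With those 12 libraries the fall of Sox2 was not called either (adjusted p = 0.159). The largest falls in the group were those of Dppa2 (87.1 and 94.7 to 34.3 and 40.9), its partner Dppa4 and the Nodal co-receptor Tdgf1 (543 and 552 to 247 and 236). Lin28a and Foxd3 rose, by 0.19 and 0.56.

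The promoter of Klf4 is shown because this gene had the largest fall of those ranked and because Cxxc5 carries a domain that binds CG pairs. The line gives 250 bases before the RefSeq start (GRCm38.p6, chr4:55532476-55532725, minus strand), 5′ to 3′, with its 32 CG pairs in capitals.
Klf4: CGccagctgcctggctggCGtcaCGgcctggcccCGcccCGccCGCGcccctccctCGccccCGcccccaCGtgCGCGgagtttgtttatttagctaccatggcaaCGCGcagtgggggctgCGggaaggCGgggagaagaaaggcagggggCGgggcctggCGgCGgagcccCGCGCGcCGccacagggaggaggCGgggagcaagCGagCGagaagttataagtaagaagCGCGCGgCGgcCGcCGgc
The median promoter of the tested genes held 16 CG pairs in a window of this length (11891 promoters of 9305 genes), and the median over all 32851 promoters held 6.

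Formative and primed epiblast genes rose as the naive genes fell. Of 15 tested, 12 rose, 2 fell and 1 was not called, with a median of 1.38. Pou3f1, also called Oct6, was read at 6.09 and 5.54 FPKM on day 0 and 32.8 and 27.3 on day 3 (change 2.18 ± 0.09, SE; adjusted p = 6.9e-06). Otx2, the factor that redirects Pou5f1 to formative enhancers, went from 21.8 and 16.6 to 58.9 and 48.5. Sox3 went from 0.379 and 0.400 to 10.7 and 10.05, so both day 0 libraries lay near 0 and both day 3 libraries near 10. It was the 1 gene of this list that passed the minimum through day 3 only, and of the other 14, 11 rose and 2 fell. Zic2, Sox4 and Sox11, transcription factors of the later epiblast and neural plate, rose by 1.35, 1.696 and 1.38. Cdh2, the N-cadherin gene, went from 1.83 and 1.63 to 7.44 and 7.46. Lef1 and Myc fell, by 0.62 and 0.64. Grhl2, which opens epithelial enhancers in the formative state, was the member not called, at 9.76 and 9.19 FPKM on day 0 and 10.1 and 9.297 on day 3.

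The promoter of Fgf5, the protein-coding gene with the largest rise of those ranked, is shown for comparison with that of Klf4. It is chr5:98253934-98254183 on the plus strand, with 24 CG pairs in capitals.
Fgf5: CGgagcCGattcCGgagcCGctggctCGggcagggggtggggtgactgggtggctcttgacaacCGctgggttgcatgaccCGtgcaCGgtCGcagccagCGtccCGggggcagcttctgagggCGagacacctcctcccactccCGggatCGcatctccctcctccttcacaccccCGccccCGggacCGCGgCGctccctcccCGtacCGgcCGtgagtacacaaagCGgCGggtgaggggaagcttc

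Enzymes of DNA methylation and demethylation moved in opposite directions within their families. Tet2 was read at 54.3 and 59.5 FPKM on day 0 and 6.58 and 7.18 on day 3, a fall of 2.88 ± 0.104 (SE; adjusted p = 4.5e-06). Tet1 went from 137 and 137 to 38.7 and 40.3. Tet3, which has the same catalytic activity, was near 1 FPKM at day 0 (1.12 and 1.06) and rose to 4.62 and 4.26. At day 0 Tet1 and Tet2 thus stood far above Tet3, and at day 3 the levels of Tet2 and Tet3 were within a few FPKM of each other. Dnmt3b, a de novo methyltransferase, rose from 110.4 and 105 to 358 and 307 FPKM (change 1.61 ± 0.09, SE; adjusted p = 1.6e-05). Its cofactor Dnmt3l went from 124 and 124 to 26.01 and 34.8. Dnmt3a, the other de novo enzyme, was not called, at 28.8 and 28.1 on day 0 and 26.5 and 23.4 on day 3. The maintenance enzyme Dnmt1 fell by 0.299, and its partner Uhrf1 by 0.37. Under quantile normalization the fall of Dnmt1 was not called (adjusted p = 0.102). Zfp57, which guards imprints with Trim28, had the second largest fall of the group, from 138 and 149.7 to 20.2 and 20.01. Over the 13 genes, 2 rose, 8 fell and 3 were not called, with a median of -0.37.

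Promoters of Tet2, which fell, and Dnmt3b, which rose, are shown as the pair of methylation genes with the largest opposite changes. Tet2 is chr3:133544391-133544640 on the minus strand with 51 CG pairs, and Dnmt3b is chr2:153649199-153649448 on the plus strand with 21, again in capitals.
Tet2: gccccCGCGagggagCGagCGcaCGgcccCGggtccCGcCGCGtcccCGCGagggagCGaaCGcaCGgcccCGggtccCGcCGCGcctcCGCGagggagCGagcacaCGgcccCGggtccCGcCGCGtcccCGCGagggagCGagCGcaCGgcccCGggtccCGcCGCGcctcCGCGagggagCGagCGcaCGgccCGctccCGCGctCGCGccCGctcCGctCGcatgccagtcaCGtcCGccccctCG
Dnmt3b: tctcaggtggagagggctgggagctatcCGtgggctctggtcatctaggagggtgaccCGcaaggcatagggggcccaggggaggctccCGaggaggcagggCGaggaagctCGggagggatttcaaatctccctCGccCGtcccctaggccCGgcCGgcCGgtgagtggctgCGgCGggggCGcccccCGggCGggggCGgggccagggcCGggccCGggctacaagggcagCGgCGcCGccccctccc
Both hold more CG pairs than the median of 16. Promoters of genes that rose, fell or were not called had the same median of 16.

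Other genes with a CXXC zinc finger did not move as one. Of 10 tested, 6 rose and 3 fell (median 0.25). Apart from the Tet genes the changes were small, the largest being that of Kdm2b, which recruits Polycomb complexes to CG islands and went from 27.3 and 29.7 to 44.1 and 43.3 FPKM. Cxxc4, the closest relative of Cxxc5, was below the minimum. Of 16 Polycomb genes, 3 rose and 8 fell (median -0.33). Eed, a core subunit of the complex that methylates histone H3, went from 107 and 113 to 43.7 and 45.3, and Jarid2, its cofactor in stem cells, from 155 and 169.6 to 69.04 and 75.2. Cbx2 rose by 0.92 while Cbx7, the subunit typical of ESCs, fell by 0.48. With all 12 libraries in the fit the fall of Cbx7 was not called (adjusted p = 0.0894).

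In the LIF pathway the receptor, its transcription factor and most targets fell. Lifr, the receptor, went from 31.2 and 33.5 FPKM to 8.32 and 9.63, and Stat3, the transcription factor it activates, from 22.2 and 22.3 to 6.26 and 5.51. The shared receptor subunit Il6st fell by 0.51. Among targets, Socs3 fell by 3.89 ± 0.06 (SE; adjusted p = 7.2e-07) and Bcl3 went from 28.97 and 30.02 to 1.73 and 1.65. In both targets the day 3 libraries lay far below those of day 0. Jak1, the kinase between receptor and STAT3, was not called, at 11.9 and 12.1 on day 0 and 12.5 and 13.4 on day 3. Socs2 was the 1 member that rose, from 59.1 and 61.4 to 85.9 and 88.1. Of the 10 genes, 8 fell, with a median of -0.85.

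The Socs3 promoter is shown because STAT proteins bind the letters TTCNNNGAA, which read the same on both strands. It is chr11:117969367-117969616 on the minus strand, and the single match, in capitals, lies 154 to 146 bases before the annotated start.
Socs3: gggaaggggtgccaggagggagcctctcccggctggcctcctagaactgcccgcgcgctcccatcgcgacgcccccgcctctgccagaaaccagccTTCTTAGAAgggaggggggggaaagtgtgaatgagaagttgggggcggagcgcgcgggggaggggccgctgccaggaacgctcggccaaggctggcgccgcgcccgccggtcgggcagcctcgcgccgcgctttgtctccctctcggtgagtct
The motif was found in 7.02% of all promoters of this length and in 5.79% of those of tested genes. It occurred in 6.45% of promoters of genes that fell and 5.09% of those that rose. Socs3 was the only 1 of the 9 LIF pathway genes with a promoter in the table to hold it, and Esrrb the only 1 of 9 naive factors. A match is a description of the sequence and not evidence of binding.

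Signalling ligands and receptors changed in both directions. Among 16 FGF and ERK genes, 8 rose and 7 fell (median 0.19). Without Fgf8, which passed the minimum through day 3 only, 7 of 15 rose and 7 fell. Fgf4, the ligand of the naive state, fell, as given above, and Fgf5, Fgf8 and Fgf15 rose. Fgf15 went from 4.53 and 4.05 to 18.1 and 15.4 FPKM. The receptor Fgfr1 rose from 21.9 and 23.6 to 45.5 and 48.5. Feedback genes split: the phosphatases Dusp4 (13.7 and 13.97 to 47.9 and 46.3) and Dusp6 (32.2 and 32.8 to 70.2 and 63.6) rose, while the ETS factor Etv4 (40.9 and 44.3 to 9.37 and 9.83) and the inhibitor Spry4 (41.97 and 45.5 to 22.1 and 20.7) fell.

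Nodal, which sustains the epiblast and patterns the streak, rose from 19.3 and 20.4 to 33.8 and 38.3 FPKM. Its inhibitors Lefty1 and Lefty2, which are also its targets, rose from 28.01 and 20.3 to 58.9 and 68.9 and from 39.6 and 27.2 to 79.7 and 85.2. With all 12 libraries in the fit, Lefty1 was not called (adjusted p = 0.055). Fst, an activin antagonist, went from 0.976 and 0.896 to 12.8 and 15.1. Against these, the co-receptor Tdgf1 and the ligand Gdf3 fell. Of 10 members tested, out of 12, 7 rose and 2 fell (median 0.77). Without Fst, which passed the minimum through day 3 only, 6 of 9 rose.

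In the Wnt pathway most receptors rose while the targets split. Of 9 ligands and receptors tested, out of 16, 6 rose and 1 fell. Fzd2 went from 1.82 and 1.76 to 12.9 and 11.4 FPKM and Fzd7 from 29.4 and 28.3 to 60.7 and 53.96, while Fzd5 went the other way, from 27.6 and 29.2 to 8.13 and 7.796. The ligands Wnt8a and Wnt3 rose but stayed low: Wnt8a was read at 3.36 and 4.44 and Wnt3 at 1.82 and 1.71 on day 3. Both passed the minimum through day 3 only, and of the other 7 ligands and receptors 4 rose and 1 fell. Wnt7b was not called, at 5.77 and 7.61 on day 0 and 3.89 and 6.28 on day 3, days that overlapped. Of 6 targets and feedback genes tested, out of 12, Axin2 and Tcf7 rose (by 0.53 and 0.75) and Notum, Lef1 and Ccnd1 fell. The rise of Axin2 was not called with all 12 libraries (adjusted p = 0.129). In the BMP pathway, 7 of 11 genes were tested. Bmp4 fell from 27.8 and 31.7 to 4.602 and 5.33 and Id1, a target that supports self-renewal, from 49.2 and 49.996 to 21.7 and 18.98. Id2 rose from 10.1 and 10.9 to 23.5 and 23.2. Bmpr1a and Id3 also rose, by 0.47 and 0.697, and the call of Bmpr1a was lost when any 1 knockout library was left out (adjusted p 0.11 to 0.13).

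Genes of later lineages were mostly still below the minimum. Of 14 primitive streak genes 4 were tested. Only Eomes, a T-box factor of the streak, had a mean of at least 1 on both days, and it rose from 2.65 and 2.32 to 10.2 and 11.6 FPKM. The other 3, T, Wnt3 and Fgf8, were members through day 3 alone, so that their rise is largely set by the minimum and is a description. T, also called Brachyury, went from 0.451 and 0.289 to 1.71 and 2.34. Wnt3 rose by 0.98, a call lost with all 12 libraries (adjusted p = 0.055). Mixl1 and Mesp1 did not reach the minimum, and the summed level of the 14 genes lay between 6.66 and 6.83 FPKM at day 0 and between 37.0 and 42.4 at day 3. Of 12 lateral and cardiac mesoderm genes, 2 were tested, both members through day 3 alone, and Twist1 went from 0.902 and 0.671 to 3.904 and 3.76. The 12 genes summed to at most 9.35 FPKM in any knockout library. Of 12 blood and endothelium genes, 4 were tested. Etv2 (0.982 and 0.818 to 2.87 and 2.94) and Lmo2 (0.379 and 0.364 to 1.64 and 1.93) were again members through day 3 alone. Of the remaining pair, Gata2 rose, to below 3 FPKM, a call lost in 4 alternatives, and Cd34 was not called.

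Of 12 neuroectoderm genes 6 were tested, 5 rose and 1 fell. Nes, which encodes the intermediate filament nestin, went from 8.24 and 8.38 to 33.2 and 27.5 FPKM and Sox1 from 0.813 and 1.24 to 3.66 and 4.16. Fabp7, a fatty acid binding protein of radial glia, was listed at 0 in both day 0 libraries and at 3.92 and 5.98 on day 3, through which alone it passed the minimum. Tubb3, a tubulin of neurons, fell from 55.1 and 58.8 to 29.2 and 34.1. Pax6 rose by 0.73, a call lost with all 12 libraries (adjusted p = 0.11). The proneural gene Neurog2 lay at or near 0.

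Markers of other cell types that such cultures can hold were checked as well. Of 12 extraembryonic endoderm genes, 8 were under 1 FPKM in all 4 libraries, among them Gata6, Sox17 and Afp, while Apoe, which many cells express, and Dab2 rose. None of the 12 was at 0 in all 4 libraries, and their sum, mostly Apoe, lay between 259 and 275 FPKM at day 0 and between 490.3 and 504 at day 3. Among definitive endoderm genes Trh, the thyrotropin-releasing hormone gene, went from 195 and 152 to 707 and 662 FPKM and Cxcr4 from 0.619 and 1.16 to 3.74 and 4.55, while Sox17 and Foxa1 stayed under 1. Of 10 trophoblast genes 4 were tested, 3 rose and 1, Tfap2c, fell. The keratins Krt8 and Krt18, expressed in many epithelia, rose by 1.32 and 1.61. Krt7, a member through day 3 only, rose from 0.811 and 0.654 to 2.18 and 2.82 FPKM. Cdx2 and Elf5 stayed under 1, while Gata3 went from 0.469 and 0.548 to 0.882 and 1.04. The 10 genes summed to between 80.4 and 83.5 FPKM at day 0 and between 121 and 123 at day 3. All 10 genes of the 2-cell-like state in the table were under 1 in every knockout library, and 3 of them were at 0 in all 4. Feeder fibroblast genes summed to between 19.6 and 40.4 FPKM at day 0 and between 47.3 and 51.1 at day 3. Of the 7 tested out of 12, Thy1, Dcn and Tagln rose, and Col1a1 and Col1a2 fell. Dcn, like Dab2 and Cxcr4, was a member through day 3 only, and Col1a1 and Col1a2 were members through day 0 only. Col1a1 stood at 5.89 and 2.07 on day 0, higher in replicate 1 than in replicate 2, and at 0.687 and 0.445 on day 3. Without day 3 replicate 2 the fall of Col1a2 was not called (adjusted p = 0.058). The part of these cells in other results was not tested.

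Germline genes that promoter methylation keeps silent in most tissues fell. Of 9 tested out of 14, 7 fell and 0 rose (median -1.04). Hormad1, a meiotic chromosome axis gene, went from 8.97 and 10.6 to 1.28 and 1.86 FPKM, Mael from 6.25 and 6.53 to 2.02 and 1.98 and Sycp1 from 4.26 and 3.802 to 1.13 and 1.31. Ddx4, a germ cell helicase, went from 13.97 and 15.8 to 5.79 and 6.95. Genes of the Rhox cluster and of germ cell precursors did not share one direction: of 10 tested, 3 rose and 3 fell. That is near the shares over all genes tested (27.8% rose and 32.6% fell). Rhox9, a homeobox gene of the X chromosome, was read at 16.9 and 20.02 FPKM on day 0 and 26.7 and 41.4 on day 3. Nanos3, an RNA-binding protein of primordial germ cells, rose by 0.48 ± 0.11 (SE; adjusted p = 0.0086). The calls of Nanos3 and Rhox9 each rest on single libraries: Rhox9 was lost without day 0 replicate 1 (adjusted p = 0.054), and Nanos3 without day 0 replicate 2 (0.062), without day 3 replicate 2 (0.064) and with all 12 libraries (0.17). Tfap2c, a factor of germ cell and trophoblast precursors, fell by 0.63, which was lost without day 3 replicate 1 (0.059).

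Imprinted genes, which are expressed from 1 parental allele, mostly rose. Of 18 tested out of 20, 13 rose, 1 fell and 4 were not called, with a median of 0.83 (against -0.04 over all genes). Without Plagl1, which passed the minimum through day 3 only, 12 of 17 rose and 1 fell. Igf2, a fetal growth factor, went from 2.56 and 2.53 to 15.8 and 18.7 FPKM and Impact, a translation regulator, from 34.003 and 35.5 to 96.1 and 93.01. The noncoding RNAs of 1 cluster on chromosome 12 moved together: Meg3 rose from 31.1 and 32.9 to 71.3 and 68.5, Rian by 1.01 and Mirg by 1.07. Phlda2, which restrains placental growth, fell from 57.99 and 54.3 to 21.2 and 23.6, a call lost with all 12 libraries (adjusted p = 0.054). The table gives 1 value per gene, so the allele of origin is not resolved.

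Of 13 adhesion genes tested, 6 rose and 2 fell, and the risers included both epithelial and mesenchymal genes. The tight junction genes Cldn6 (34.9 and 32.6 to 98.4 and 81.3 FPKM), Cldn7 (18.1 and 17.8 to 44.7 and 42.02) and Cldn3 rose, as did Ocln, while Cldn4 fell by 0.43. Cdh1, the E-cadherin gene, was not called, at 233 and 227 on day 0 and 217 and 198 on day 3. Zeb2, a repressor of epithelial genes, went from near 0 (0.416 and 0.300) to 2.06 and 2.42 and was a member through day 3 only. In the matrix, Lama1, a laminin chain, went from 9.73 and 11.4 to 1.32 and 1.603 and Lamc1 from 62.9 and 64.4 to 28.8 and 30.2, while the collagen IV genes Col4a1 and Col4a2 rose by 1.103 and 0.801. Fibronectin (Fn1) fell by 0.88, a call lost with all 12 libraries (adjusted p = 0.104). Of 13 matrix genes 4 rose and 7 fell. Feeder genes moved over the same interval, by the sums given above.

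All 16 genes of cholesterol synthesis and uptake rose, with a median of 0.82. Sqle, squalene epoxidase, went from 33.7 and 31.5 to 82.7 and 82.1 FPKM, and Hmgcs1, at the entry of the mevalonate pathway, from 66.6 and 63.7 to 183 and 172. Sc5d, near its end, rose by 1.43, and Cyp51, which demethylates lanosterol, by 1.38. The smallest rise was that of Insig1, which restrains the pathway, at 0.26. For Sqle and Hmgcs1 both day 3 libraries lay far above both day 0 libraries.

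Of the integrated stress response, 13 of 14 genes tested fell, with a median of -1.001. Trib3, a pseudokinase, went from 29.1 and 27.6 to 4.65 and 4.55 FPKM and Chac1, which degrades glutathione, from 24.2 and 23.5 to 3.91 and 3.58. Nupr1, a stress-induced chromatin protein, went from 33.6 and 30.6 to 2.39 and 2.74. Atf4, the factor at the head of the response, fell by 0.93, and the enzymes Psat1, Asns and Mthfd2 by 1.604, 1.24 and 1.48. Atf3 was the 1 gene of the list that rose, by 0.37.

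Of 18 glycolysis and hypoxia genes, 15 fell and 0 rose (median -0.58). Pfkp, a phosphofructokinase, went from 81.1 and 80.3 to 26.6 and 26.6 FPKM, Hk2 from 110.0 and 113 to 45.02 and 43.01 and Bnip3 from 86.5 and 81.001 to 25.2 and 19.5. Gapdh was not called, at 1161 and 1149.7 on day 0 and 1129 and 1089 on day 3. Nuclear genes of oxidative phosphorylation fell in 13 of 16 cases but little, with a median of -0.28 and no fall beyond 0.72 (Cox7a1). Under quantile normalization the fall of Atp5a1 was not called (adjusted p = 0.195). Of 11 p53 targets tested, 9 rose and 0 fell (median 0.40), led by Pmaip1, which encodes the BH3 protein Noxa and went from 16.8 and 16.2 to 59.8 and 56.1. Cdkn1a rose by 0.69 and Trp53inp1 by 1.02. Of 15 cell cycle genes 9 fell and 1 rose. Cyclin E1 (Ccne1) went from 129 and 134 to 61.6 and 60.9 and Ccnd3 from 85.3 and 95.5 to 37.5 and 42.1, while the inhibitor Cdkn1b rose by 0.595. Mki67 and Pcna, marks of cycling cells, were not called.

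**Figure D2:**
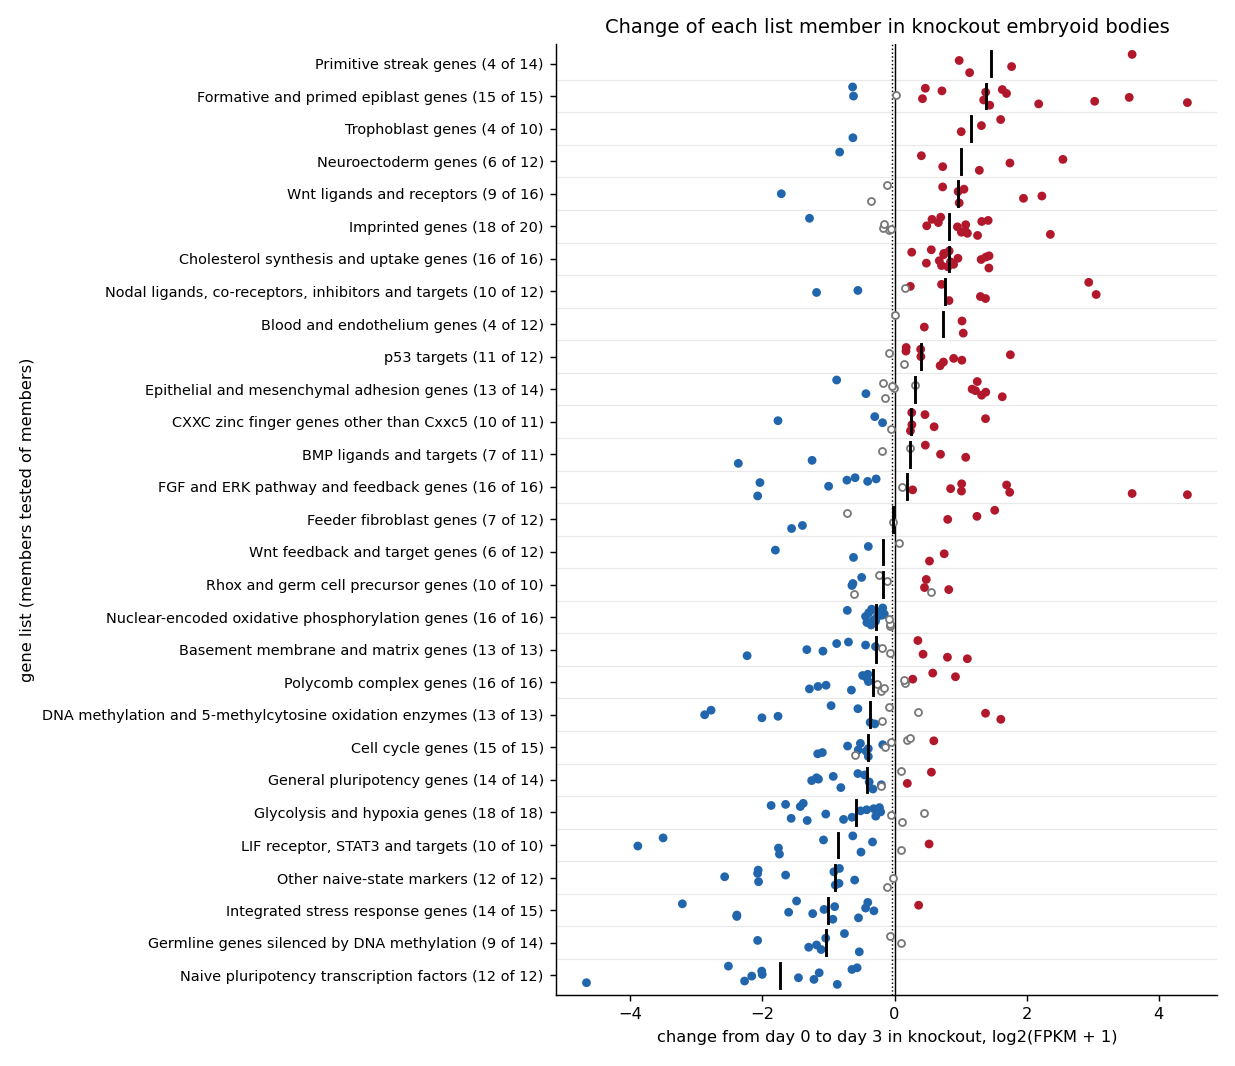
Change from day 0 to day 3 in knockout, in log2(FPKM + 1), for each tested member of the lists with at least 4 tested members, with the list's members tested of all members in brackets. Red points rose, blue points fell and open points were not called; the short black bar is the list's median and the dotted line the median of all 12123 genes. The naive factors lie wholly to the left and the cholesterol genes wholly to the right.

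The same interval in wild type gave the comparison of how the knockout change differed. Wild type and knockout changes share no library. In wild type 7703 of the 12123 genes passed the test (63.5%), 3473 higher (28.6%) and 4230 lower (34.9%). Of the knockout calls 87.9% were also wild type calls, and of the wild type calls 83.5% were also knockout calls. The direction was the same for 6416 of the 6434 genes called in both. Across the 12123 genes, which are not independent and share each library's scaling, the changes correlated at a Pearson's r of 0.851 and a Spearman's rho of 0.901. The least-squares slope of the knockout change on the wild type change was 0.790. Noise in the wild type changes lowers such a slope, so it does not measure how much smaller the knockout changes were. Over all genes the median absolute change was 0.314 in knockout and 0.330 in wild type.

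Whether the change differed between genotypes was tested as an interaction, knockout change minus wild type change. It was called for 27 genes (0.223%), 24 higher (0.198%) and 3 lower (0.0247%), and 1711 genes had an unadjusted p under 0.05. The count and its balance depended on single libraries. It was 7 without wild type day 0 replicate 1, 8 without wild type day 3 replicate 1, 4 without wild type day 3 replicate 2 and 15 without knockout day 0 replicate 1. Without that library 6 were higher and 9 lower, and without knockout day 0 replicate 2, 9 were higher and 14 lower, so the balance of 24 to 3 turned in both cases. Of the 27 genes, 5 were short RNA genes (Mir1954, Snord8, Mir669l, Mir1197 and Mir1b), read in the 2 knockout libraries of day 3 and listed at 0 in the other 6. They passed the minimum through knockout day 3 alone, so the choice of members largely sets their sign. For Mir1954, Mir669l, Mir1197 and Mir1b the day 3 replicates stood in a ratio of 1.18, which is the ratio that equal read numbers give at the estimated depths. Of the other 22, 21 are described here, and 19 of the 21, all but Eomes and Plekhh1, changed less in knockout than in wild type. These genes were chosen by the difference itself, and the share over all genes was not counted. By sign, 12 of the 21 were lower at day 3 in both genotypes and less so in knockout, 4 were higher in both, and 5 were higher in knockout and lower in wild type.

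**Figure D3:**
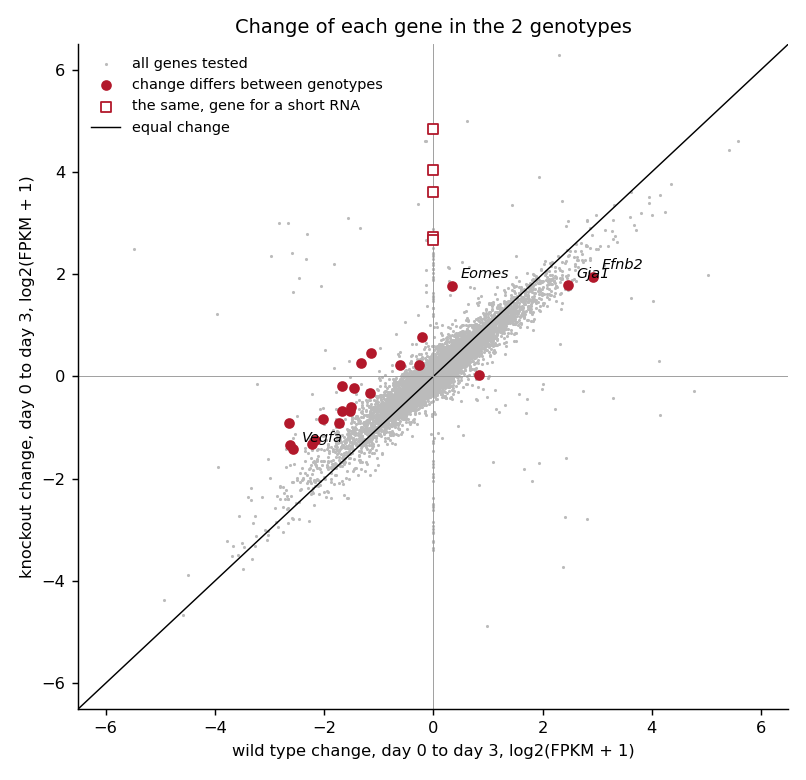
Change from day 0 to day 3 in knockout against that in wild type, both in log2(FPKM + 1), 1 point for each of the 12123 genes. Filled red points are the 22 genes whose change differed between genotypes and open squares the 5 genes for short RNAs that also passed; the line marks equal change. Vegfa lies above the line on the falling side, Efnb2 and Gja1 below it on the rising side.

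Tle6, a member of the Groucho family found in the oocyte, was read in knockout at 5.58 and 6.45 on day 0 and 4.93 and 5.37 on day 3 and in wild type at 7.17 and 7.05 on day 0 and 1.42 and 1.65 on day 3. Its interaction of 1.49 ± 0.12 (SE) had the lowest adjusted p of the 21 (0.014) and was called in 14 of 19 alternatives. The others were called less often: Zc3hav1 in 11, Aard and Dusp9 in 10, and Aes, Efnb2, Erf, Mpc1 and Vegfa in 9. Grhl2 and Mylpf were called in 8, Elf3 and Gja1 in 7, and Ak4, Nid1, Pianp, Prr13 and Yif1b in 6. Plekhh1 was called in 7 of 18 and Slc15a1 in 5 of 18. Zc3hav1, an antiviral RNA-binding protein, gave 11.3 and 12.3 on day 0 and 12.6 and 16.1 on day 3 in knockout and 12.2 and 12.5 on day 0 and 4.07 and 4.58 on day 3 in wild type. In both genes the wild type level dropped away, so that the genotypes did not overlap at day 3. At day 0 the genotypes overlapped for Zc3hav1, while both knockout values of Tle6 lay below both wild type values.

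Elf3, an epithelial ETS factor, and Mylpf, a myosin light chain, also fell further in wild type, and at day 0 Mylpf was higher in knockout. Elf3 was read at 22.5 and 23.6 on day 0 and 17.2 and 22.1 on day 3 in knockout and at 22.1 and 23.6 on day 0 and 7.59 and 7.86 on day 3 in wild type. Mylpf went from 198 and 229.6 to 76.3 and 92.2 in knockout and from 179 and 183 to 29.7 and 27.8 in wild type. Ak4, an adenylate kinase of mitochondria, and Dusp9, a phosphatase of ERK, fell further in wild type as well, with differences of 0.82 and 0.84. A day 0 level already lower in knockout, as in Tle6, was also seen in Vegfa, Nid1, Mpc1, Erf, Aes, Prr13 and Slc15a1. Vegfa, the endothelial growth factor, gave 21.2 and 21.4 on day 0 and 7.33 and 7.27 on day 3 in knockout against 32.1 and 26.7 on day 0 and 4.15 and 4.08 on day 3 in wild type. Nid1, a basement membrane linker, had day 3 levels of 4.81 and 4.65 in knockout and 4.89 and 5.79 in wild type. Its genotypes were further apart at day 0, at 13.05 and 13.7 against 28.2 and 28.8. Erf, an ETS repressor downstream of ERK, gave 32.2 and 36.5 on day 0 and 21.5 and 20.9 on day 3 against 50.6 and 49.3 on day 0 and 16.6 and 16.98 on day 3.

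Eomes was the gene that rose in both and rose more in knockout. Its wild type levels were 4.31 and 4.67 FPKM on day 0 and 5.304 and 6.59 on day 3, against 2.65 and 2.32 on day 0 and 10.2 and 11.6 on day 3 in knockout, an interaction of 1.44 ± 0.16 (SE; adjusted p = 0.033). That call held in 8 of 19 alternatives, with an adjusted p of up to 0.511 and values from 0.88 to 1.702. In the libraries themselves, both knockout values were lower than both wild type values on day 0 and higher on day 3. Aard, Plekhh1, Zc3hav1, Pianp and Yif1b were the 5 with changes of opposite sign. Aard was read at 8.96 and 11.1 on day 0 and 12.7 and 15.5 on day 3 in knockout and at 8.45 and 9.06 on day 0 and 3.54 and 3.29 on day 3 in wild type. The 3 lower genes rose or were level in knockout: Efnb2, an ephrin ligand, went from 6.11 and 6.05 to 27.5 and 25.3 in knockout and from 2.75 and 3.06 to 27.3 and 29.6 in wild type. Gja1, a connexin of ESCs, went from 64.7 and 62.9 to 231 and 213 in knockout and from 40.4 and 42.3 to 232 and 231 in wild type. Grhl2 was higher in knockout at day 0 (wild type 5.79 and 5.795), while at day 3 its wild type level was 11.05 and 11.2. For all 3 the genotypes were closer at day 3 than at day 0.

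**Figure D4:**
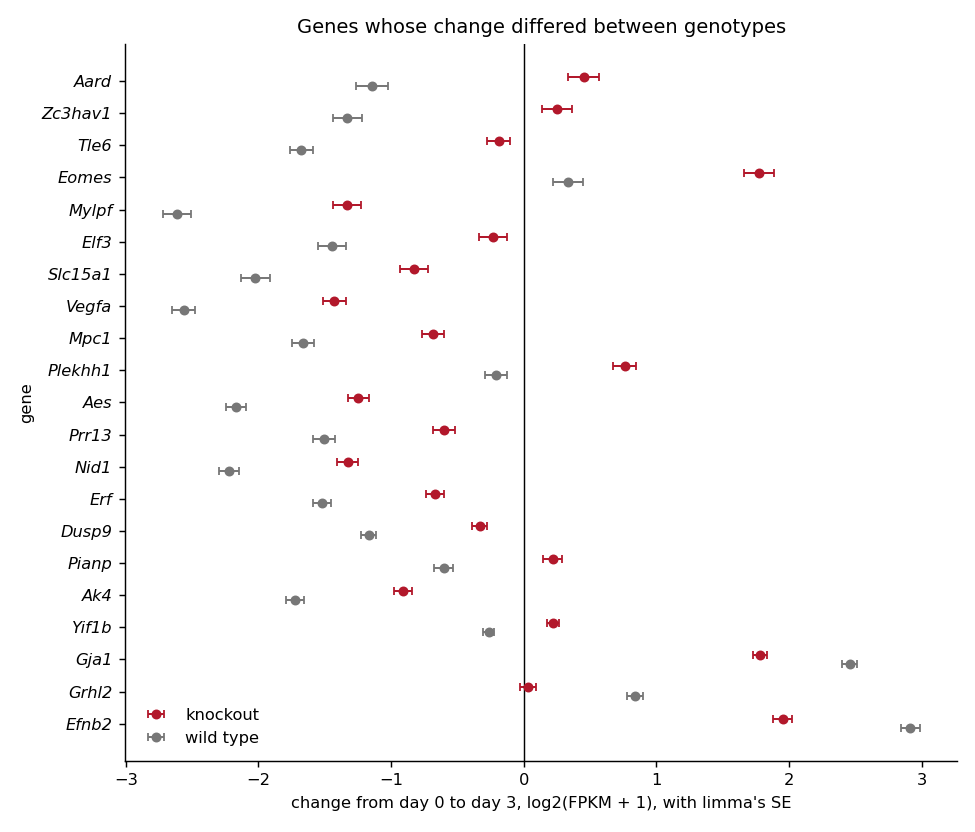
Change from day 0 to day 3 in log2(FPKM + 1), with limma's SE as bars, in knockout (red) and wild type (grey) for 21 genes other than short RNA genes whose change differed between genotypes. The upper 18 have the larger value in knockout and the lower 3 the larger value in wild type.

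With genes for short RNAs left out of the fit, a setting chosen after seeing the data, the interaction was called for 100 genes, 72 higher and 28 lower, and 22 of the 27 were among them. Of the 100, 84 changed less in knockout than in wild type. This count too is of genes chosen by that difference, and the share over all genes was not counted. The 100 genes included members of the lists above. Nanog was read in wild type at 252 and 267 on day 0 and 108 and 116 on day 3 FPKM, so it started higher and ended lower than in knockout, and its interaction was 0.64 ± 0.101 (SE). Tfcp2l1 (0.89), Prdm14 (1.14), Tcl1 (1.31) and Alpl (0.92) gave values of the same sign. With genes for short RNAs in the fit their adjusted p lay between 0.081 (Alpl) and 0.098 (Tcl1), so none of them was called there. Pou3f1 (-0.93) and Dnmt3b (-0.71) gave values of the opposite sign. Pou3f1 was higher in knockout at day 0 (wild type 3.35 and 3.69) and lower at day 3 (wild type 38.8 and 37.5). Klf4 had an interaction of -0.08 ± 0.21, Tet1 of 0.08 ± 0.14, Dnmt3l of -0.03 ± 0.25 and Tet2 of 0.42 ± 0.15 (SE). None of these 4 was called (adjusted p 0.28 to 0.98).

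Several lists had another balance of calls in wild type, side by side with knockout and with the difference in counts not tested. Naive factors fell in 12 of 12 cases in both, with medians of -1.73 in knockout and -1.99 in wild type. Of the other naive-state markers 10 fell in knockout and 12 in wild type (medians -0.91 and -1.70). Formative genes had medians of 1.38 and 1.78. Rhox and germ cell precursor genes fell in 3 cases in knockout and 9 in wild type, and rose in 3 and 0, with medians of -0.18 and -0.93. Rhox9 in wild type went from 7.46 and 7.79 to 4.498 and 4.23 FPKM, below every knockout library on both days.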

How the data were processed

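RNA-seq was done on total RNA with 75-base single-end reads, per the series' design text, which gives Trim Galore 0.4.1 for trimming and TopHat2 2.0.13 for mapping to mm10. The deposited FPKM values hold 1 column per embryoid body library. The submitters' processing notes also name Cufflinks 2.2.1, Cuffdiff and HTSeq 0.6.1, with no role stated. The sources used here do not give the annotation. FPKM divide reads by gene length and library total, so they give no read counts and are unstable for very short genes. Depth was estimated from the step between low FPKM values of 2272 genes with a single transcript in the mouse reference annotation.

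The 92 spike-in rows were at 0 in all libraries and were left out. limma 3.58.1 in R 4.3.3, with a variance trend, was fitted to log2(FPKM + 1) of the 8 libraries of days 0 and 3, without a replicate block, and p-values were adjusted over the 12123 genes. The script was tested on simulated data. Groups came from the sample titles. The labels speak of 2 ESC lines per genotype but do not tie the replicate numbers to them.

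Named genes were a fixed set of stem cell genes, the 10 largest rises and falls, the 8 largest interactions of each sign, and up to 4 genes of lowest adjusted p per list. The rises and falls were ranked among called genes whose libraries of the days did not overlap. Rik, Gm and LOC names were skipped in that ranking and among the 8 interactions. Other list members, and the interaction genes beyond 8, were named after their values were seen. The members and the 33 lists were chosen with earlier results of these data known. Promoters are RefSeq sequences of GRCm38.p6, matched by symbol. Positions of 12100 members were found there. Alternatives changed the pseudocount, the minimum, the scaling, the libraries in the fit, the block and the variance trend. The separate ESC table and the ChIP-seq samples are not used here. A few genes that the naming rule or the lists hold are not reported here.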

Additional observations from a re-analysis of the deposited data

Results flagged for a closer look

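The 26 results given here had a test of the difference between genotypes, knockout change minus wild type change in log2(FPKM + 1), with limma's adjusted p under 0.05. Among genes lower at day 3 in both genotypes the differences were 1.49 (Tle6), 1.28 (Mylpf), 1.22 (Elf3), 1.19 (Slc15a1), 1.14 (Vegfa), 0.98 (Mpc1), 0.92 (Aes), 0.904 (Prr13), 0.89 (Nid1), 0.85 (Erf), 0.84 (Dusp9) and 0.82 (Ak4). Eomes, higher at day 3 in both, differed by 1.44. The genes higher in knockout and lower in wild type differed by 1.59 (Aard), 1.58 (Zc3hav1), 0.97 (Plekhh1), 0.82 (Pianp) and 0.48 (Yif1b). Efnb2, Grhl2 and Gja1, whose wild type values rose more, differed by -0.96, -0.81 and -0.68.

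The 5 short RNA genes differed by 4.84 (Mir1954), 4.04 (Snord8), 3.61 (Mir669l), 2.73 (Mir1197) and 2.66 (Mir1b). All 5 passed the minimum through knockout day 3 alone, so the choice of members largely sets the sign of these differences. Mir1954 was listed at 0 in the 6 libraries other than knockout day 3, where it was read at 30.04 and 25.4 FPKM. Snord8 was read there at 23.6 and 9.96, the widest replicate gap of the 5. Of 197 genes for short RNAs tested, 24 were called in knockout, a smaller share than the 60.4% of all genes tested. Of the 24, 17 rose and 7 fell, and for 12 of the 17 both day 0 libraries were listed at 0. Those 12 were members through day 3 only, which largely sets their direction. For Mir1954, Mir669l, Mir1197 and Mir1b, knockout day 3 replicate 1 stood at 1.18 times replicate 2, and for Snord8 at 2.37 times. Multiplied out by the estimated depths, which differ by 1.19 times, these are ratios in reads of 0.999 and 1.998. The number of reads itself was not resolved, and the part of depth and length in these values was not tested.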

How the results depend on the processing

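The count of genes that changed in knockout (7317 of 12123) kept within 1.5 times in all 15 alternatives. The number of genes tested was not the same in all of them. It was 5338 of 8695 with a mean FPKM of at least 5 and 8863 of 19510 with no minimum, so the share called was lower with no minimum. The count of interactions (27) did not keep within 1.5 times. It was 42 with a pseudocount of 0.1, 14 with a pseudocount of 5, 4 with no minimum, 10 with all 12 libraries, 13 with no variance trend, 100 with short RNA genes left out (added after seeing the data), and from 4 to 35 without 1 library. With the replicate number as a block it was 15 (12 higher, 3 lower), and the block left 7014 knockout calls. Deviations of same-numbered replicates correlated at -0.00976 in knockout and -0.0346 in wild type. With so few libraries, these values cannot show whether same-numbered samples come from the same ESC line. Of 2798 values for the knockout change of named genes under an alternative, 2726 kept direction and side of the threshold, as did 728 of 995 for the interaction. The sign turned for the knockout change of Dppa3 (0.10 with quantile normalization, -0.27 to 0.0321 without 1 library) and Grhl2 (-0.0118 with quantile normalization, -0.0241 to 0.0827 without 1 library), neither of them called. Among interactions not called it turned for Klf4 (0.26 with a pseudocount of 5, -0.31 to 0.14 without 1 library), Tet1 (-0.0936 to 0.25 without 1 library), Dnmt3l (-0.23 to 0.17 without 1 library) and Pou5f1 (0.0265 with quantile normalization, -0.13 to 0.13 without 1 library). The cause was not tested.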
